A study of Homo sapiens with 6 samples.

Results

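mRNA decay and stability factors set how long a transcript lasts. The set described here has 10 genes, fixed by name: CNOT1, CNOT2, CNOT3 and CNOT6L of the CCR4-NOT deadenylase, the decay-promoting RNA-binding proteins ZFP36, HNRNPD and CELF1, and the stabilising RNA-binding proteins ELAVL1, IGF2BP2 and IGF2BP3. All 10 were found among the 25528 gene symbols of the TPM table, and all 10 passed the expression minimum that left 11672 genes for testing. The samples were DU-145/tet-XISTshRNA cells, a human prostate cancer cell line that carries a tetracycline-inducible shRNA against the lncRNA XIST. The control group had 3 samples given vehicle (0.1% DMSO), and the shRNA-induced group had 3 samples given doxycycline (DOX, 500 ng/ml), for a treatment of 7 days. Both groups carry the same integrated shRNA vector and went through drug selection for it. Cells with a control shRNA and DOX were not analysed here, so an effect of DOX itself and an effect of the XIST shRNA cannot be told apart. XIST was listed at 0 in all 6 samples, as was EIF4A1, which encodes an initiation factor of translation in all cells, so the silencing could not be checked from these values. In bulk RNA, a lower level can mean fewer expressing cells or less RNA in each cell, and these cannot be told apart.

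Decay of most cytoplasmic mRNAs starts at the poly(A) tail. The CCR4-NOT complex shortens the tail, after which the mRNA is decapped and degraded by XRN1 or degraded from the other end by the RNA exosome. RNA-binding proteins decide which mRNAs are taken up: ZFP36 (tristetraprolin) and HNRNPD (AUF1) bind AU-rich elements in 3′UTRs, CELF1 binds GU-rich elements, ELAVL1 (HuR) binds AU- and U-rich elements and stabilises its targets, and IGF2BP2 and IGF2BP3 stabilise mRNAs that carry N6-methyladenosine. The study is concerned with how XIST RNA is itself kept from decay, and it names CNOT1 among the proteins that destabilise XIST. For silencing of MUC1-C, not of XIST, it reports lower CNOT1 transcripts and higher CNOT1 protein. CELF1 is named there as a protein that binds the XIST E repeat, and MUC1-C silencing had no significant effect on its expression. For silencing of XIST, the paper reports gene set enrichment in RNA-seq of DOX-treated DU-145/tet-XISTshRNA cells. There it finds a gene signature of mRNA destabilisation by HNRNPD (AUF1) regulated by both MUC1-C and XIST. No gene set was tested here.

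A sequence by which such factors recognise a transcript is the AU-rich nonamer TTATTTATT, the form of the element that ZFP36 binds, as read on the mRNA strand. Among the 10 genes it occurred in the 3′UTR of ELAVL1 and ZFP36, with 1 match in each, and it was absent from the 3′UTRs of the other 8. These sites are shown with those of FOS and DUSP1, immediate-early transcripts known for rapid decay, because their levels are set beside ZFP36 further on; the capitals mark the nonamer, and each sequence runs 5′ to 3′ on the mRNA strand with U written as T.
ZFP36 (GRCh38 chr19:39409196-39409224, plus strand): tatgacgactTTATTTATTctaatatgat
ELAVL1 (GRCh38 chr19:7961828-7961856, minus strand): atttatgtatTTATTTATTgaagtgtgaa
FOS (GRCh38 chr14:75282060-75282088, plus strand): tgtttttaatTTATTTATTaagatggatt
DUSP1 (GRCh38 chr5:172768643-172768671, minus strand, the first of its 2 matches): gggctggtccTTATTTATTtaacttcacc
Each site lies within 1 exon, in the 3′UTR of the canonical transcript of GENCODE release 44. The nonamer was present in 10.1% of the 10253 3′UTRs of tested genes, and in 22.3% and 5.70% of 3′UTRs about as long as those of ELAVL1 and ZFP36. The shorter pentamer ATTTA, which the nonamer contains, occurred 26 times in the 7044-base 3′UTR of CNOT6L, 13 times in ELAVL1 (4910 bases), 10 times in CELF1 (6293 bases), 7 times in IGF2BP3 (2153 bases) and 5 times in ZFP36 (708 bases), and once or 2 times in each of the other 5. At least 1 ATTTA was present in 75.6% of the 3′UTRs. The Pumilio motif TGTANATA had 1 match each in CNOT1, CNOT2, CNOT6L and IGF2BP2, and 31.6% of 3′UTRs held it. Among 3′UTRs of about the same length the share was 21.4% for CNOT1, 24.0% for CNOT2, 70.7% for CNOT6L and 41.2% for IGF2BP2. All motifs were searched on the mRNA strand alone, and a match describes letters in the window, not binding.

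TPM, a length-normalised transcript abundance, divides the reads of a gene by its length and sets each sample to the same total. Here 5 small RNAs (RN7SK, RPPH1, RN7SL1, RN7SL2 and RN7SL3) held 67.5% to 82.6% of that total, most in DOX replicate 1 and least in vehicle replicate 3, which leaves less of the total for all other genes where that share is high. Levels below are therefore given as scaled TPM, that is, TPM divided by a factor per sample (0.680 to 1.39) from the median of ratios. Over all genes the log2 fold changes had a median of 0.01 on this scale and -0.35 for TPM as deposited. Reads recovered from the files numbered between 5454437 (vehicle replicate 3) and 64571949 (DOX replicate 1). The epithelial markers EPCAM, KRT8, KRT18, KRT19 and CDH1 were detected in all 6 samples (summed TPM 214 to 358), KLK3 of the prostate luminal list was listed at 0 in all 6, and CD3E, COL1A2, DCN and LUM were likewise at 0.

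In vehicle-treated cells the 10 genes spanned more than an order of magnitude, from ZFP36 at 81.4 ± 4.16 scaled TPM (SD, n = 3) to IGF2BP3 at 5.78 ± 0.950. The order below ZFP36 was HNRNPD (73.1 ± 1.03), CNOT1 (71.2 ± 5.38), CNOT2 (23.0 ± 1.95), ELAVL1 (17.5 ± 1.96), IGF2BP2 (16.5 ± 2.24), CELF1 (14.5 ± 0.774), CNOT6L (11.2 ± 1.52) and CNOT3 (6.39 ± 0.951), all as mean scaled TPM ± SD with n = 3. The ranges of the neighbours HNRNPD and CNOT1, ELAVL1 and IGF2BP2, IGF2BP2 and CELF1, and CNOT3 and IGF2BP3 overlapped. With DOX the highest mean was that of HNRNPD (77.9 ± 12.9), followed by CNOT1 (67.6 ± 1.06) and ZFP36 (55.0 ± 27.4), and the ranges of HNRNPD and CNOT1 and of CNOT1 and ZFP36 overlapped. IGF2BP3 was again the lowest of the 10, at 5.39 ± 0.357. IGF2BP1, the third gene of the IGF2BP family, lay under the expression minimum at 0.607 with vehicle and 0.598 with DOX (mean scaled TPM), and the neuronal HuR relatives ELAVL2 and ELAVL4 were listed at 0 in all 6 samples. The paper measured IGF2BP1 transcripts and protein in DU-145 cells with MUC1-C silenced, and in its proposed model IGF2BP1 stabilises XIST.

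**Figure D1:**
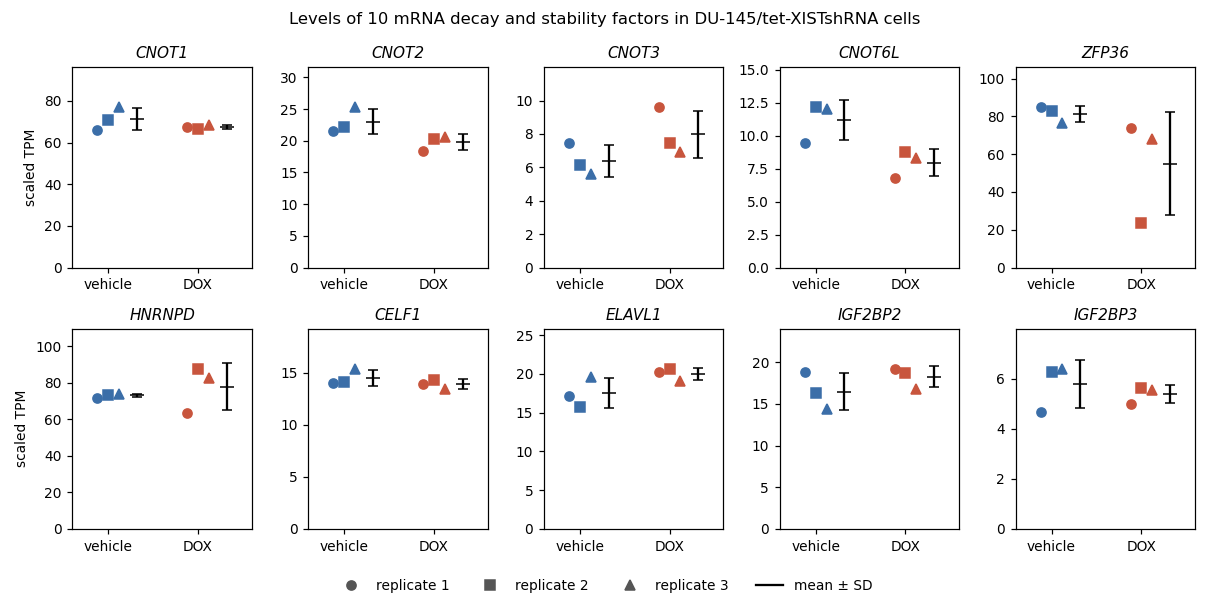
Scaled TPM of the 10 genes in each sample, with vehicle in blue, DOX in red, replicate numbers as symbols and the mean ± SD (n = 3) as black bars; each y axis starts at 0. CNOT2, CNOT6L and ZFP36 have DOX values below the vehicle values throughout, and DOX replicate 2 lies far below the other samples for ZFP36.

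To determine whether these genes differed between DOX and vehicle, limma was fitted to log2(scaled TPM + 1) of all tested genes. Of the 10 genes, 0 were called at an adjusted p-value under 0.05 with a fold change over 1.5, as were 0 of all 11672 genes in either direction (0%). With p under 0.05 before adjustment and this fold change, 140 genes (1.2%) were lower and 129 (1.11%) higher, and 0 of the 10 were among them. Without the fold change, 16.1% of all genes and 1 of the 10 (CNOT6L) had p under 0.05 before adjustment by limma. By voom on the recovered reads, 1 gene of all genes was called (0.00857%) and 0 of the 10. The log2 fold changes of the 10 genes had a median of -0.06, ran from -0.71 (ZFP36) to 0.28 (CNOT3), and were negative for 6 and positive for 4. On TPM as deposited the median was -0.46 and all 10 were negative, so the sign of CNOT3 (-0.11), HNRNPD (-0.35), IGF2BP2 (-0.27) and ELAVL1 (-0.23) depended on the scale. The DOX values were all below the vehicle values for 3 of the 10 (CNOT2, CNOT6L and ZFP36), against 10.5% of all genes, and above them for 0 of the 10, against 9.77% of all genes.

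CNOT1, the scaffold on which the deadenylase assembles, had 66.1, 70.7 and 76.9 scaled TPM with vehicle and 67.6, 66.5 and 68.6 with DOX, in the order of the replicate numbers, as for all values listed this way. The groups overlapped, with all DOX samples close together in the lower part of the vehicle range. The log2 fold change of CNOT1 was -0.07 (95% confidence interval -0.33 to 0.18, adjusted p = 0.752 from limma), and on this scale the interval leaves out a change of the size of the 1.5-fold threshold. On TPM as deposited it was -0.51 with an interval of -1.07 to 0.06, which includes a 1.5-fold fall. The gene lies on chromosome 16 of GRCh38 (58519951 to 58629885, minus strand), and between 5432 and 59954 recovered reads per sample stood behind these values.

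CNOT2 and CNOT3 form the regulatory NOT module with CNOT1. CNOT2 (chromosome 12, 70243002 to 70354993) had 21.6, 22.2 and 25.2 scaled TPM with vehicle and 18.4, 20.3 and 20.6 with DOX. The DOX values were all below the vehicle values, by 1.15-fold on average, and the log2 fold change of -0.21 (interval -0.47 to 0.06) was not past the threshold (adjusted p = 0.393 from limma). CNOT3 (chromosome 19, 54137749 to 54155681) had 7.45, 6.12 and 5.60 scaled TPM with vehicle and 9.59, 7.44 and 6.91 with DOX. The groups overlapped because vehicle replicate 1 lay just above DOX replicate 2 and above DOX replicate 3. Its log2 fold change of 0.28 (interval -0.07 to 0.62, adjusted p = 0.380 from limma) was the highest of the 10, and between 246 and 5281 reads per sample stood behind it. Without DOX replicate 1 it was 0.15, below HNRNPD (0.22) and ELAVL1 (0.18). Each DOX sample of CNOT3 lay above the vehicle sample of the same number, and blocking on replicate gave an interval of 0.06 to 0.49 (unadjusted p = 0.0195, adjusted p = 0.107 from limma). With this block 29.2% of all genes, and 3 of the 10, had p under 0.05 before adjustment by limma.

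CNOT6L, a catalytic subunit that removes poly(A), had the largest difference of the 4 CCR4-NOT genes in the set. It had 9.46, 12.1 and 12.03 scaled TPM with vehicle and 6.80, 8.80 and 8.28 with DOX. The groups did not overlap, and the mean was 11.2 ± 1.52 with vehicle and 7.96 ± 1.04 with DOX (SD, n = 3 each). The log2 fold change was -0.45 (interval -0.77 to -0.12, unadjusted p = 0.0120, adjusted p = 0.278 from limma), which placed it at percentile 4.48 of all genes. Leaving out any 1 sample gave values between -0.55 and -0.35. With the replicate block the adjusted p from limma was 0.0572, and voom on the recovered reads with the block gave -0.48 (adjusted p = 0.0137), which is under the fold threshold. The gene (chromosome 4, 77713387 to 77819615, minus strand) has a GC content of 36.8%, and correction for GC content and length left -0.15 (adjusted p = 0.463 from limma).

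Ratios within a sample do not depend on how samples are scaled, and 8 were computed after the data were seen. A dependence on GC content or length is not removed by a ratio. With these corrected, the log2 fold change was 0.11 for CNOT2, 0.04 for CNOT1 and -0.15 for CNOT6L, so CNOT2 was then not lower relative to CNOT1. The ratio of CNOT6L to CNOT1 was 0.143, 0.172 and 0.157 with vehicle and 0.100, 0.132 and 0.121 with DOX. The ratio of CNOT6L to CNOT6, its closest relative and alternative partner in the complex, was 0.420, 0.440 and 0.485 with vehicle and 0.365, 0.384 and 0.360 with DOX. CNOT2 to CNOT1 was 0.327, 0.314 and 0.328 with vehicle and 0.272, 0.306 and 0.301 with DOX. In each of these 3 ratios the groups did not overlap, the DOX values being lower, and the exact permutation test (two-sided) gave p = 0.1, the smallest value that 3 samples against 3 can reach, and 0.267 after Benjamini-Hochberg adjustment over the 8 ratios. The ratio of CNOT3 to CNOT1 was 0.113, 0.0867 and 0.0729 with vehicle and 0.142, 0.112 and 0.101 with DOX. The groups overlapped (unpaired exact permutation p = 0.3, adjusted 0.400), and in each of the 3 same-numbered pairs the DOX value was higher.

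**Figure D2:**
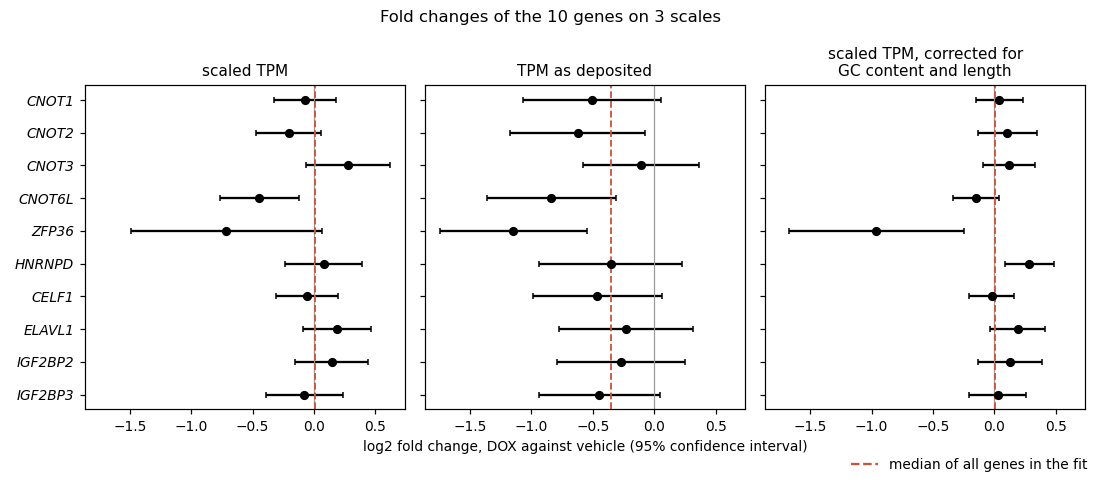
Log2 fold changes of the 10 genes for DOX against vehicle with 95% confidence intervals, from scaled TPM, TPM as deposited and scaled TPM corrected for GC content and length; the dashed line is the median of all genes in that fit. On TPM as deposited all 10 points lie left of 0, as does the median of all genes at -0.35, and after the correction 3 of the 10 do.

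ZFP36 delivers AU-rich mRNAs to CCR4-NOT, and its own mRNA is an immediate-early transcript. It had 84.7, 82.8 and 76.7 scaled TPM with vehicle and 73.6, 23.6 and 67.9 with DOX. The groups did not overlap, but DOX replicates 1 and 3 lay near the vehicle samples and DOX replicate 2 lay far below them. The log2 fold change was -0.71 (interval -1.49 to 0.06, unadjusted p = 0.0679, adjusted p = 0.332 from limma), at percentile 0.557 of all genes. With the replicate block the interval was -1.40 to -0.03 (adjusted p = 0.157 from limma). Without DOX replicate 2 it was -0.20 (adjusted p = 0.312 from limma). On TPM as deposited ZFP36 was the 1 gene of the 10 called lower, where 2.98% of all genes were, at -1.15 (adjusted p = 0.0371 from limma). That call did not hold without DOX replicate 2 (-0.75, adjusted p = 0.0786 from limma), where 2363 of all genes were called lower. It did not hold without vehicle replicate 2 (-1.18, adjusted p = 0.301 from limma) or vehicle replicate 3 (-1.06, adjusted p = 0.457) either, where 1 and 0 of all genes were called lower. With the replicate block on deposited TPM, where 19% of all genes were called lower, ZFP36 (adjusted p = 2.66e-06), CNOT6L (0.000565) and CNOT2 (0.0110) were called by limma. ZFP36 lies on the plus strand of chromosome 19 from 39406847 to 39409412, and between 898 and 10804 reads per sample stood behind it.

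Transcripts with AU-rich elements, the class on which ZFP36 acts, were described as a list of 24 genes, of which 21 were tested. DOX replicate 2 had the lowest scaled TPM of all 6 samples in 18 of the 21 (85.7%), and it was the lowest sample for 16.9% of all genes. Relative to the vehicle mean on the log2(scaled TPM + 1) scale, the median of the list was -0.70 in DOX replicate 2, -0.01 in DOX replicate 1 and -0.06 in DOX replicate 3. FOS, a subunit of the AP-1 transcription factor and the gene of the list with the lowest log2 fold change, had 38.2, 34.1 and 36.5 scaled TPM with vehicle and 32.97, 4.33 and 27.2 with DOX. For FOS the difference on the log2 scale was -1.11 (adjusted p = 0.340 from limma) and -0.27 without DOX replicate 2. EGR1, an immediate-early transcription factor, had 122, 97.2 and 110 scaled TPM with vehicle and 112, 23.3 and 91.5 with DOX, so that DOX replicates 1 and 3 lay in or near the vehicle range. DUSP1, a phosphatase that turns off MAP kinases and the source of a site printed above, had 110, 113 and 114 with vehicle and 138, 68.8 and 128 with DOX. EGR1 and DUSP1 were chosen for naming after their values were seen.

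For the whole list the median log2 fold change was -0.17 with 16 of 21 negative, and without DOX replicate 2 it was -0.05 with 11 of 21 negative. By limma 0 of the 21 were called, and 3 were lower with p under 0.05 before adjustment and the fold change, beside 1.2% of all genes. On TPM as deposited 6 were called lower (FOS, FOSB, EGR1, CXCL8, IL6 and CXCL2), beside 2.98% of all genes. The highest value was that of PLAUR, the urokinase receptor, at 0.34 (adjusted p = 0.312 from limma). ZFP36 held 2.25 ± 0.163 times the TPM of FOS with vehicle (SD, n = 3), and 2.23, 5.45 and 2.50 times with DOX replicates 1, 2 and 3. Against its relative ZFP36L1 the ratio was 0.852, 0.806 and 0.672 with vehicle and 0.672, 0.369 and 0.624 with DOX. The groups overlapped in both ratios.

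**Figure D3:**
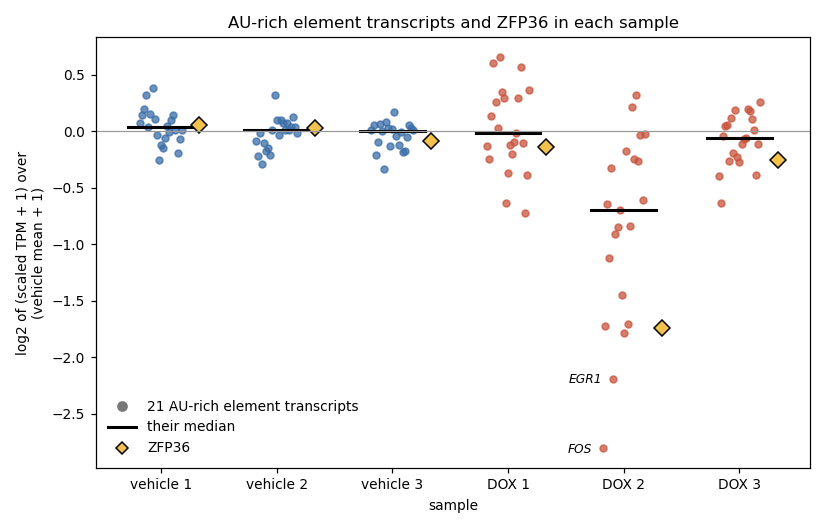
Scaled TPM of 21 AU-rich element transcripts (circles) and ZFP36 (diamonds) in each sample, as log2 of (scaled TPM + 1) over (vehicle mean + 1), with the list median as a black bar. The median lies between -0.06 and 0.04 in 5 samples and at -0.70 in DOX replicate 2, where FOS and EGR1 are lowest.

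Of the tested genes of the AU-rich list, 9 of 21 held the nonamer in their 3′UTR. Across all genes, the 1037 with a nonamer had a median log2 fold change of -0.12 and the 9216 without one had 0.03. The medians were -0.02 and 0.02 after correction for GC content and length, and the median GC content was 42.9% with and 47.5% without the nonamer. ELAVL1 (chromosome 19, 7958573 to 8005659), the other gene of the 10 with a nonamer, had 17.1, 15.8 and 19.6 scaled TPM with vehicle and 20.3, 20.7 and 19.1 with DOX. Vehicle replicate 3 lay inside the DOX range, so the groups overlapped, and the log2 fold change was 0.19 (interval -0.09 to 0.46, adjusted p = 0.445 from limma). The value in DOX replicate 2 was the highest of the 6 for ELAVL1, by a small margin (20.7 against 20.3 in DOX replicate 1). For ZFP36 it was the lowest of the 6, by a wide margin (23.6 against 67.9 in DOX replicate 3).

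HNRNPD (chromosome 4, 82352498 to 82374503), which binds AU-rich mRNAs and in many settings speeds their decay, had 71.9, 73.5 and 73.9 scaled TPM with vehicle and 63.3, 87.7 and 82.9 with DOX. The vehicle samples lay within a narrow range and the DOX samples lay on both sides of it, with a coefficient of variation of 1.41% with vehicle and 16.6% with DOX. HNRNPD had a log2 fold change of 0.08 (interval -0.24 to 0.39, adjusted p = 0.787 from limma). Correction for GC content and length gave 0.28 (unadjusted p = 0.0108, adjusted p = 0.299 from limma). After this correction 13.4% of all genes in the fit, and 2 of the 10, had p under 0.05 before adjustment by limma. CELF1 (chromosome 11, 47465933 to 47565569), which binds GU-rich elements, had 14.04, 14.08 and 15.4 with vehicle and 13.97, 14.3 and 13.5 with DOX, and the log2 fold change of -0.05 had an interval from -0.31 to 0.20 (adjusted p = 0.815 from limma). For CELF1 the samples lay close together in both groups, with a coefficient of variation of 5.33% with vehicle and 3.19% with DOX. The ratio of HNRNPD to ELAVL1, which compete for AU-rich sites, was 4.20 ± 0.448 with vehicle and 3.90 ± 0.673 with DOX (SD, n = 3 each, exact permutation p = 0.7).

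The insulin-like growth factor 2 mRNA-binding proteins are readers of N6-methyladenosine that protect their targets. IGF2BP2 (chromosome 3, 185643130 to 185825042) had 18.8, 16.3 and 14.4 scaled TPM with vehicle and 19.2, 18.7 and 16.8 with DOX, and the groups overlapped, although each DOX sample lay above the vehicle sample of its number. IGF2BP3 (chromosome 7, 23310209 to 23470491) had 4.68, 6.26 and 6.39 with vehicle and 4.98, 5.64 and 5.54 with DOX, all DOX samples within the vehicle range. The log2 fold changes were 0.14 (interval -0.15 to 0.44, adjusted p = 0.574 from limma) for IGF2BP2 and -0.08 (interval -0.39 to 0.24, adjusted p = 0.787 from limma) for IGF2BP3. The ratio of IGF2BP2 to IGF2BP3 was 4.02, 2.60 and 2.24 with vehicle and 3.86, 3.31 and 3.04 with DOX, highest in replicate 1 of both groups (exact permutation p = 0.5).

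The fold changes of all genes differed with GC content, along which the 10 genes were spread. In 4 bins of equal size from the lowest to the highest GC content, the median log2 fold change was -0.22, -0.07, 0.09 and 0.22. CNOT6L (36.8%) and CNOT2 (37.0%) lay in the lowest bin and CNOT3 (57.3%) in the highest, and their log2 fold changes had the sign of their bin's median. ZFP36 (58.1%) lay in the highest bin with the opposite sign. HNRNPD (39.6%, log2 fold change 0.08) lay in the lowest bin, also with the opposite sign. CELF1 (47.4%, log2 fold change -0.05) lay in the bin with a median of 0.09, again opposite in sign. The log2 fold changes of CNOT1, IGF2BP2, IGF2BP3 and ELAVL1 had the sign of their bin's median. With GC content and length corrected, the log2 fold change was 0.11 for CNOT2, 0.12 for CNOT3 and 0.04 for CNOT1, and the median of the 10 was 0.07. HNRNPD (0.28) was then the highest of the 10, and ELAVL1 (0.19) also lay above CNOT3. For ZFP36 it was then -0.96 (unadjusted p = 0.0136, adjusted p = 0.302 from limma).

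**Figure D4:**
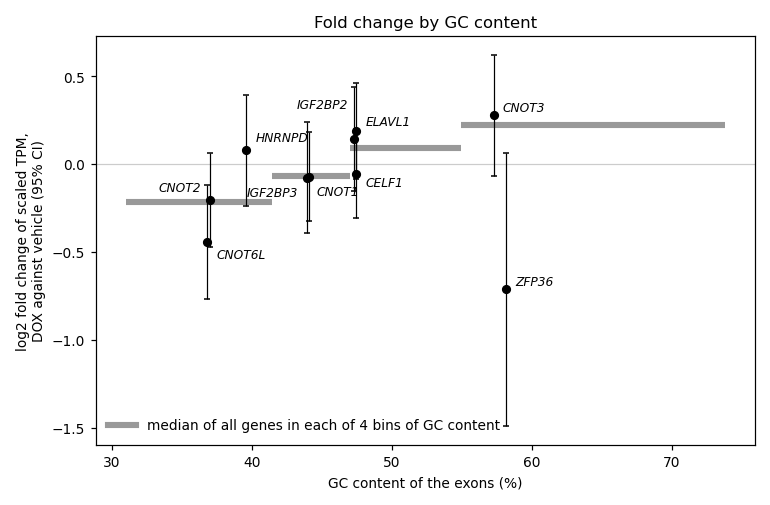
Log2 fold change of scaled TPM for DOX against vehicle with 95% confidence intervals against the GC content of the exons, for the 10 genes; grey bars are the medians of all genes in each of 4 bins of GC content, from -0.22 to 0.22. CNOT6L and CNOT2 lie at the low end, CNOT3 and ZFP36 at the high end, and ZFP36 lies below the median of its bin.

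The other genes of mRNA decay were described in 7 further lists, none of which had a gene called by limma on scaled TPM (0 genes in all). The other CCR4-NOT subunits (8 of 8 tested) had a median log2 fold change of -0.04. CNOT4, a ubiquitin ligase that can attach to the complex, had the lowest value of these at -0.35 (adjusted p = 0.295 from limma), with 13.3 ± 1.68 scaled TPM with vehicle and 10.3 ± 1.41 with DOX and no overlap. TNKS1BP1 had the highest at 0.21 (adjusted p = 0.492 from limma). The deadenylases and adaptors outside the complex (9 of 9 tested) had a median of -0.19. TOB1, an adaptor that recruits CCR4-NOT, had 174, 190.4 and 185 scaled TPM with vehicle and 156, 82.5 and 162 with DOX, with DOX replicate 2 again lowest. The log2 fold change of TOB1 was -0.51 (adjusted p = 0.309 from limma) and -0.20 without that sample, and NOCT had the highest value of its list at 0.24 (adjusted p = 0.533 from limma).

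Decapping and 5′-3′ decay genes (19 of 19 tested) had a median of 0.15, with 1 lower and 1 higher by p under 0.05 before adjustment and the fold change. XRN1, the exonuclease that degrades decapped mRNA, had 14.3, 17.2 and 17.5 scaled TPM with vehicle and 6.70, 13.2 and 8.37 with DOX. The groups did not overlap, and its log2 fold change was -0.78 (unadjusted p = 0.00401, adjusted p = 0.275 from limma), or -1.02 to -0.58 when any 1 sample was left out. Voom with the replicate block called XRN1 lower (-0.83, adjusted p = 0.0107), where 2.24% of all genes were, and correction for GC content and length left -0.47. LSM7, of the ring that binds deadenylated tails, had 33.5, 25.3 and 14.7 scaled TPM with vehicle and 37.5, 36.9 and 35.1 with DOX, and the difference on the log2 scale was 0.63 (adjusted p = 0.283 from limma). The DOX samples of LSM7 were close together and the vehicle samples far apart, with the lowest in vehicle replicate 3, and the difference was 0.32 without that sample and 0.88 without vehicle replicate 1.

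The exosome and SKI genes (16 of 17 tested) had a median of 0.09, from TTC37 of the SKI complex at -0.43 to the exosome ring subunit EXOSC6 at 0.34. Nonsense-mediated decay genes (10 of 10 tested) had a median of 0.04, from the kinase SMG1 at -0.40 to its substrate UPF1 at 0.36. The list of other AU-, GU-rich and Pumilio-type binding proteins (17 of 17 tested) also held genes of other types, among them the YTHDF, TNRC6 and RC3H families. This mixed list had a median of -0.19 with 13 negative, from RC3H1 (Roquin-1) at -0.46 to KHSRP at 0.36. The other stabilising proteins (12 of 16 tested) had a median of 0.04, from LARP4 at -0.41 to YBX1 at 0.37. The adjusted p-values from limma of these 8 genes lay between 0.278 and 0.325. In these lists the groups did not overlap for 4, 1, 5 and 4 of the tested genes, beside 20.2% of all genes. They did not overlap for 8 of the 19 decapping and 5′-3′ decay genes (3 lower, 5 higher). For the other CCR4-NOT subunits, the other deadenylases and adaptors and the AU-rich transcripts it was 2 of 8, 2 of 9 and 5 of 21.

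**Figure D5:**
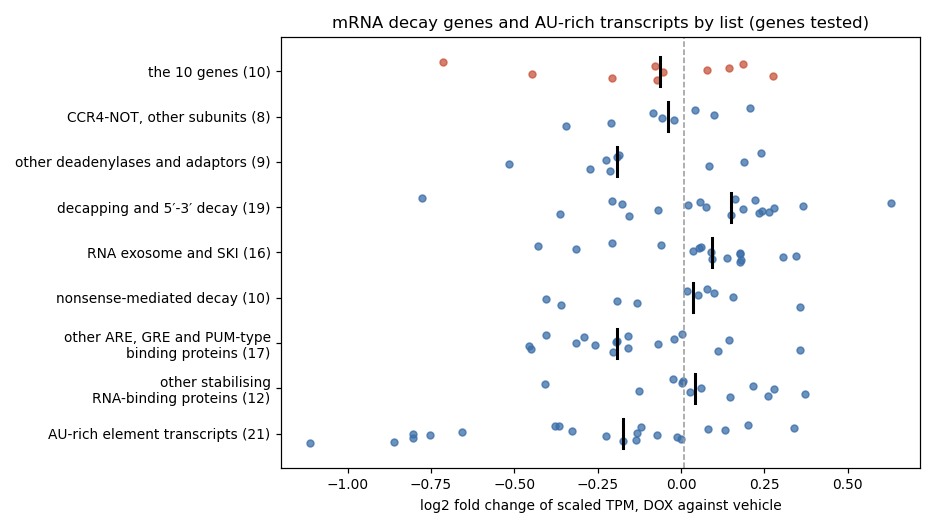
Log2 fold change of scaled TPM for DOX against vehicle of the 10 genes, of 7 lists of mRNA decay genes and of the AU-rich element transcripts, 1 point per tested gene, with list medians as black bars and the median of all genes as a dashed line. The list medians lie between -0.19 and 0.15, and the AU-rich element transcripts reach furthest left, to -1.11 for FOS.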

How the data were processed

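The paper describes total RNA of cultures in triplicate and stranded mRNA libraries. In the deposited values 5 small RNAs held 67.5% to 82.6% of the TPM, and how this relates to that library type was not tested. Alignment by the authors was to GRCh38 with STAR, and TPM (length-normalised transcript abundance) per gene symbol was deposited. Versions, strand setting and the tool for counting are not given in the sources used here. The authors also deposited DESeq2 output for DOX against vehicle. Its fold changes and p-values, which are the authors' own comparison, were not used, and its mean of normalized counts (a signal over all samples) served to recover the reads per gene. Of 26275 low values, 98.6% came out whole within 0.05 reads, against 10% by chance. The recovered reads ranged 11.8-fold between samples, so precision for low genes is set by vehicle replicate 3. TPM keeps no counting error, and the recovered reads are estimates.

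Samples were grouped by their titles, and the time of treatment is from the paper. TPM was scaled by the median of ratios, and limma (version 3.58.1, R 4.3.3) with a variance trend was fitted to log2(scaled TPM + 1) where the mean deposited TPM reached 1. p-values were adjusted by Benjamini-Hochberg over all 11672 genes, and calls required an adjusted p below 0.05 with a fold change over 1.5. This scale understates the change of low genes. Confidence intervals are at 95% and not adjusted. The study's methods describe cultures in triplicate, and what a replicate number stands for is not given in the sources used here. No pair of samples was identical (0 pairs). Same-numbered samples deviated together from their group means (r = 0.55, 0.26 and 0.18 over genes), so the replicate number was also tried as a block, on the strength of these correlations alone. On simulated data with 200 genes changed 2-fold, limma recovered 177 (88.5%) with 13 false calls among 11723 genes. The simulated counts had the same dispersion for all genes and no GC trend, replicate effect or outlying sample. This share therefore checks the steps and does not give the power in the real data. The other alternatives were deposited TPM, another pseudocount, other expression minimums, a spline correction (5 degrees of freedom) for GC content and exonic length from GENCODE release 44 (92.4% of tested genes matched), voom on recovered reads, and each sample left out.

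The 10 genes, the lists and the tests were chosen with earlier results of these data known. Named were the 10 genes, any called gene of a list and the lowest and highest log2 fold change of each list, the targeted gene XIST and the leading small RNAs, with RN7SL3 taken as a relative of RN7SL1 although SCARNA10 had a higher mean. Outside this rule, relatives of the 10 genes (CNOT6, ZFP36L1, IGF2BP1, ELAVL2, ELAVL4), EIF4A1 and DUSP1 were also named, as were genes called under an alternative. Of the other marker lists fixed, the endothelial and fibroblast genes each summed to under 1 TPM in all samples (0.0336 to 0.0597 and 0.279 to 0.616), and the leukocyte genes to 11.4 to 19.6 TPM, nearly all CD68. The sum of the prostate luminal list is not reported here. Python 3.11.15, pandas 2.3.3, SciPy 1.17.1 and matplotlib 3.10.9 were used.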

Additional observations from a re-analysis of the deposited data

How the results depend on the processing

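Of 160 log2 fold changes of the 10 genes under alternatives, 141 kept their direction and their side of the threshold, 4 passed it (ZFP36 on TPM as deposited, and ZFP36, CNOT6L and CNOT2 with the block added) and 15 changed sign. The sign changed on TPM as deposited, with and without the block, for CNOT3 (-0.11), HNRNPD (-0.35), IGF2BP2 (-0.27) and ELAVL1 (-0.23), where the median of the 10 was -0.46 and that of all genes -0.35. After correction for GC content and length, with and without the block, it changed for CNOT1 (0.041), CNOT2 (0.11) and IGF2BP3 (0.026), with a median of 0.073. It also changed for HNRNPD without DOX replicate 2 (-0.013), whose values with each sample left out reached up to 0.22. The number of all genes called, 0 in either direction on scaled TPM, was 348 lower and 3 higher on TPM as deposited, 1 lower with a mean TPM of at least 5, and 1 lower by voom. With each sample left out it was 0 to 9 lower, most without DOX replicate 2, and 0 to 13 higher, most without vehicle replicate 1. The replicate block made 0 calls on scaled TPM, 2217 lower and 15 higher calls on TPM as deposited, and 261 lower and 170 higher calls by voom. Of the 10 genes, 1 was called on TPM as deposited and 3 with the replicate block added, and with each sample left out of the deposited TPM, a choice made after the data were seen, 0 to 2, where 0 to 2363 of all genes were called lower (1257 in the setting with 2, without vehicle replicate 1). Of the 8 lists, 8 genes were called on TPM as deposited (2 decay genes and 6 AU-rich element transcripts), 34 with the block added (24 and 10) and 2 by voom with the block (XRN1 and the AU-rich transcript CXCL8). The cause of these differences was not tested. Under no other alternative did the block change a call among the 10 genes. Depth limits CNOT3 and IGF2BP3 most, with 246 and 198 reads in the shallowest sample.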
